A study of Mus musculus with 4 samples.

Results

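The complement C1q genes C1qa, C1qb and C1qc are 3 of the 22631 genes counted in immune cells from mouse MC38 tumours. They were taken by name and not by a cut on measured values, although earlier results of these data were known. Each gene encodes one chain of C1q, the recognition molecule of the classical complement pathway. The A, B and C chains fold together into collagen-like stalks with globular heads that bind antibody complexes, dying cells and some microbes. In most tissues the chains are made by macrophages and some dendritic cells rather than by lymphocytes, neutrophils or the liver cells that make most other complement proteins. The complement proteases C1r and C1s bind the stalks and start the cascade.

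The cells were CD45+ leukocytes sorted from tumours and captured with inDrops, a droplet method that counts unique molecular identifiers (UMIs), one for each captured RNA molecule. The anti-CD40 group was 2 tumours, called here anti-CD40 tumour 1 and anti-CD40 tumour 2, from mice injected with 5 mg/kg of agonist anti-CD40 antibody and killed 2 days later. They were set against 1 untreated tumour, whose host received no antibody of any kind. In all 3 tumours the host carried the IL-12p40-IRES-EYFP reporter transgene, and the tumour came from the MC38 colon carcinoma line, grown in the flank for 7 days. The labels used give no age for these mice. Each tumour was split over 4 libraries. Pools 1 and 2 were sequenced with libraries of both anti-CD40 tumour 1 and the untreated tumour, while pools 3 and 4 held anti-CD40 tumour 2 alone. Libraries of 1 tumour are technical parts of it, so conditions were compared over 3 tumours.

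The files held 1226 cells from anti-CD40 tumour 1, 1815 cells from anti-CD40 tumour 2 and 1399 cells from the untreated tumour. Median depth was 979 UMIs per cell in anti-CD40 tumour 1, 865 in anti-CD40 tumour 2 and 433 in the untreated tumour. No cell barcode was shared between libraries. The authors sorted the cells into 7 major types, and the type labelled MoMacDC pools monocytes, macrophages and dendritic cells. All 8 neutrophil markers, all 9 T cell markers and all 7 NK cell markers were detected in the type of that name in every tumour. Of the 12 macrophage markers, 11 were detected in MoMacDC of anti-CD40 tumour 1, where Fcrls was at 0, and all 12 in the other tumours.

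C1qb, C1qc and C1qa lie side by side on the minus strand of chromosome 4, in the GRCm38 build that the authors used. C1qb spans chr4:136880129-136886187, C1qc spans chr4:136889804-136893065 and C1qa spans chr4:136895917-136898803. The gaps are 3616 bases between C1qb and C1qc and 2851 bases between C1qc and C1qa. In the GENCODE annotation used here, no other gene lies within the 18675 bases of the locus, and none overlaps a member. Whether the authors counted with this annotation was not checked. C1qa and C1qb have 1 annotated transcript each, both of 3 exons, and C1qc has 2 transcripts of 2 or 3 exons.

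The sequences before the C1qb and C1qc starts are shown because the 3 genes moved together across cell types. Both are RefSeq GRCm38.p6 sequence of the minus strand, read 5′ to 3′. The C1qb window is chr4:136886201-136886450, the 250 bases before the RefSeq start. The C1qc window is chr4:136893066-136893164, the 99 bases before the longer annotated transcript. Capitals mark GAGGAA, the core bound by PU.1, and TGCTGA, part of the site bound by Maf factors, searched on both strands.
C1qb: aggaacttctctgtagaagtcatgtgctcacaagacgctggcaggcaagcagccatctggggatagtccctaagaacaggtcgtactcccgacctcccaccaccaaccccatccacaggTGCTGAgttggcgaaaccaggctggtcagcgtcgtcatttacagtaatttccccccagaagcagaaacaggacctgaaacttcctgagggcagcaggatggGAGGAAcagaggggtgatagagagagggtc
C1qc: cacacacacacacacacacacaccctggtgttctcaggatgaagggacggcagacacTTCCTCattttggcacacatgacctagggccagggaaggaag
In C1qb, GAGGAA began 30 bases and TGCTGA 131 bases before the end of the window. In C1qc, GAGGAA was on the opposite strand, so it reads TTCCTC here. These letters are common: among 32851 promoters, 23.3% of 250-base windows held GAGGAA, 16.1% held TGCTGA and 3.68% held both. Among 99-base windows of the same promoters, 9.91% held GAGGAA. A match describes the letters and shows no bound factor.

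C1q RNA sat almost wholly in MoMacDC. The 3 genes gave 22440 UMIs in 4440 cells: 8355 were C1qa, 7947 were C1qb and 6138 were C1qc. MoMacDC held 99.1% of the C1q UMIs of anti-CD40 tumour 1, 99.8% of those of anti-CD40 tumour 2 and 97.7% of those of the untreated tumour. The authors drew the cell types from the same expression values, so the difference between types is a description with no test.

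Within MoMacDC, C1q was lowest in anti-CD40 tumour 1, and the other treated tumour was much nearer to the untreated one. C1qa, the A chain, stood at 972 CPM in anti-CD40 tumour 1, 3240 CPM in anti-CD40 tumour 2 and 5215 CPM in the untreated tumour. C1qb, the B chain, stood at 1130 CPM in anti-CD40 tumour 1, 3535 CPM in anti-CD40 tumour 2 and 3639 CPM in the untreated tumour. C1qc, the C chain, stood at 614 CPM in anti-CD40 tumour 1, 2604 CPM in anti-CD40 tumour 2 and 3392 CPM in the untreated tumour. CPM is the number of UMIs of the gene for every 1000000 UMIs of these cells, and the sums rest on 595728 UMIs in anti-CD40 tumour 1, 1454851 in anti-CD40 tumour 2 and 569932 in the untreated tumour. The order of the tumours was the same for all 3 genes, but the treated tumours differed from each other more than anti-CD40 tumour 2 differed from the untreated tumour.

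Library values showed which of these gaps exceeded the technical spread. The C1qa level ran over the 4 libraries from 781 to 1360 CPM in anti-CD40 tumour 1, from 2794 to 3455 CPM in anti-CD40 tumour 2 and from 4492 to 5982 CPM in the untreated tumour. The C1qb level ran from 891 to 1414 CPM in anti-CD40 tumour 1, from 3086 to 4179 CPM in anti-CD40 tumour 2 and from 3282 to 4075 CPM in the untreated tumour. The C1qc level ran from 537 to 822 CPM in anti-CD40 tumour 1, from 2326 to 3137 CPM in anti-CD40 tumour 2 and from 2945 to 3972 CPM in the untreated tumour. All 4 libraries of anti-CD40 tumour 1 lay below every library of the other tumours for each gene. How many of all genes separate between tumours in this way was not counted. The libraries of anti-CD40 tumour 2 and of the untreated tumour overlapped for C1qb and C1qc and did not overlap for C1qa.

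**Figure D1:**
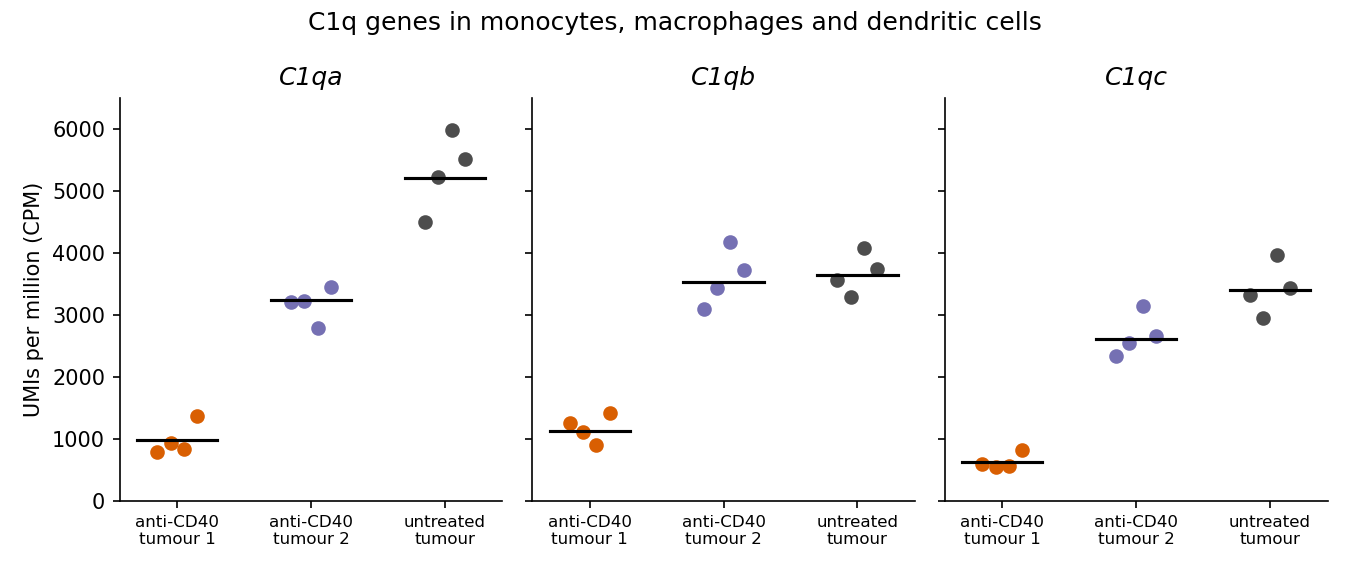
Level of C1qa, C1qb and C1qc in MoMacDC cells, in CPM on a linear axis from 0, for anti-CD40 tumour 1, anti-CD40 tumour 2 and the untreated tumour. Points are the 4 libraries of each tumour and lines the value of all cells of the tumour; anti-CD40 tumour 1 is lowest throughout, and C1qa is the gene for which anti-CD40 tumour 2, at 3240 CPM, has no library at the untreated level.

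None of the 3 genes passed the test between the anti-CD40 tumours and the untreated tumour. The log2 change was −1.23 ± 0.79 (SE) for C1qa, with an adjusted p of 0.739 by edgeR's quasi-likelihood test with Benjamini-Hochberg adjustment. For C1qb it was −0.57 ± 0.75 with an adjusted p of 0.876, and for C1qc −0.99 ± 1.07 with an adjusted p of 0.855, in the same edgeR fit. In that fit 29 of 7099 genes were called, which is 0.409%, 12 of them (0.169%) higher and 17 (0.239%) lower in the anti-CD40 tumours. With 1 untreated tumour the fit has a single residual degree of freedom, which comes from the spread between the anti-CD40 tumours. Spread among untreated animals was not measured. The fit also borrowed spread from all genes tested, which counted as 15.9 prior degrees of freedom for the median gene. In this robust fit the number differs between genes, and that of the C1q genes was not recorded. The p-values thus rest in part on spread shared across genes.

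The value depended on which treated tumour was used. Against the untreated tumour, anti-CD40 tumour 1 alone gave −2.51 for C1qa, −1.78 for C1qb and −2.55 for C1qc on the log2 scale. Anti-CD40 tumour 2 alone gave −0.57 for C1qa, 0.079 for C1qb and −0.26 for C1qc, so C1qb changed sign. These values include TMM scaling between tumours. In CPM, which lacks it, C1qb was slightly lower in anti-CD40 tumour 2, at 3535 against 3639 CPM in the untreated tumour. Within pool 1, which holds libraries of anti-CD40 tumour 1 and of the untreated tumour, the log2 change was −2.52 for C1qa, −1.65 for C1qb and −2.58 for C1qc. Within pool 2 it was −2.57 for C1qa, −1.94 for C1qb and −2.60 for C1qc. These single-tumour values have no test, and anti-CD40 tumour 2 shares no pool with untreated cells, so its difference and the pool cannot be told apart. Cells that also carried at least 3 UMIs of another type's markers made up 17.9% of MoMacDC in anti-CD40 tumour 1, 6.84% in anti-CD40 tumour 2 and 1.41% in the untreated tumour. Without them summed C1q was 3621 CPM in anti-CD40 tumour 1, 9489 CPM in anti-CD40 tumour 2 and 12223 CPM in the untreated tumour. With them it was 2716, 9378 and 12245 CPM. The neutrophil markers include S100a8, S100a9 and Lcn2, which also led a MoMacDC cluster low in C1q, cluster 14 below. That cluster had 6906 CPM of the neutrophil markers, and 110 of its 116 cells came from anti-CD40 tumour 1. How many of the cells left out belonged to it was not counted.

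Fewer MoMacDC cells of anti-CD40 tumour 1 carried any C1q UMI. To remove the depth gap, each cell was thinned to 300 of its UMIs, which left out 29 cells of anti-CD40 tumour 1, 67 of anti-CD40 tumour 2 and 281 of the untreated tumour. At that depth 32.2% of 419 MoMacDC cells of anti-CD40 tumour 1 had a C1q UMI, against 67.8% of 1263 in anti-CD40 tumour 2 and 70.8% of 855 in the untreated tumour. The 95% exact binomial intervals ran from 27.8% to 36.9% for anti-CD40 tumour 1, from 65.1% to 70.3% for anti-CD40 tumour 2 and from 67.6% to 73.8% for the untreated tumour, and they cover counting error only. Without thinning the shares were 42.0% in anti-CD40 tumour 1, 75.3% in anti-CD40 tumour 2 and 74.6% in the untreated tumour. Anti-CD40 tumour 2 and the untreated tumour thus had overlapping intervals in both counts, and anti-CD40 tumour 1 stood apart from both.

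The mean was 0.914 C1q UMIs per thinned cell in anti-CD40 tumour 1, 2.90 in anti-CD40 tumour 2 and 3.66 in the untreated tumour. The variance over cells was 3.43 times the mean in anti-CD40 tumour 1, 3.44 times in anti-CD40 tumour 2 and 3.47 times in the untreated tumour, where pure counting noise would give a ratio near 1. The ratio of variance to mean was thus nearly the same in the 3 tumours while the mean was not. All 3 chains were seen together in 4.77% of thinned cells of anti-CD40 tumour 1, 24.7% of those of anti-CD40 tumour 2 and 33.3% of those of the untreated tumour.

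**Figure D2:**
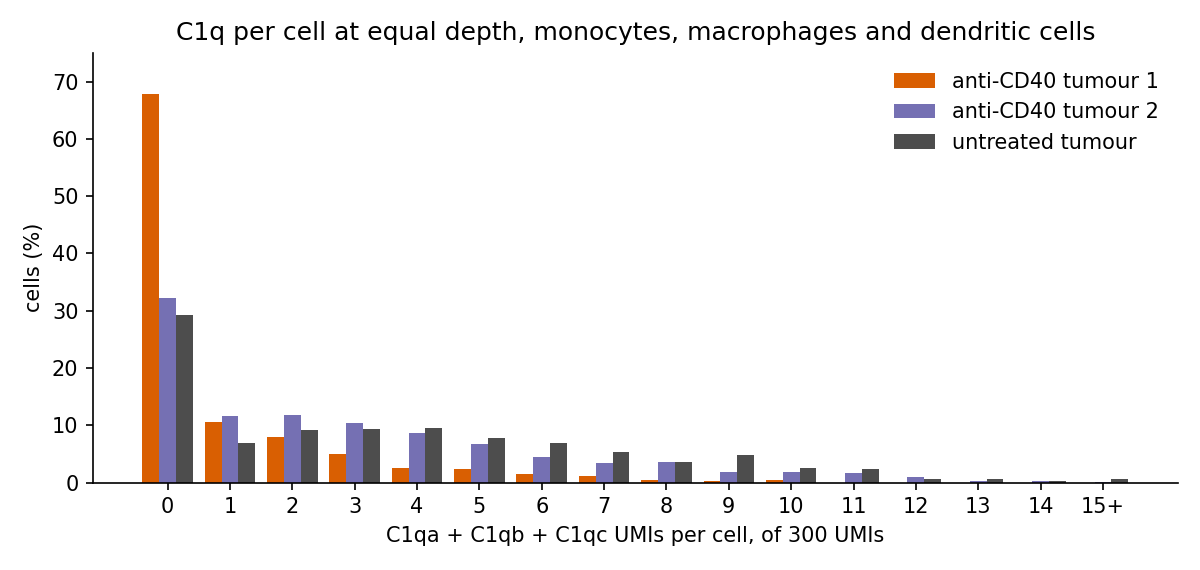
Share of MoMacDC cells (percent, y axis) by the number of C1q UMIs in the cell after thinning to 300 UMIs (x axis, 15+ pools the rest), for anti-CD40 tumour 1 (419 cells), anti-CD40 tumour 2 (1263 cells) and the untreated tumour (855 cells). In anti-CD40 tumour 1, 67.8% of cells have no C1q UMI, against 32.2% in anti-CD40 tumour 2 and 29.2% in the untreated tumour.

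The chains varied together from cell to cell. Over thinned cells, Pearson's r of the log-scaled counts of C1qa and C1qb was 0.47 in anti-CD40 tumour 1, 0.47 in anti-CD40 tumour 2 and 0.50 in the untreated tumour. The other pairs gave r from 0.36 to 0.50. Cells of 1 tumour share their libraries, so these values describe the cells and carry no p.

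The split of C1q UMIs between the chains differed between the treated tumours and the untreated one. In MoMacDC, C1qa made up 35.8% of C1q UMIs in anti-CD40 tumour 1, 34.5% in anti-CD40 tumour 2 and 42.6% in the untreated tumour. C1qb made up 41.6% in anti-CD40 tumour 1, 37.7% in anti-CD40 tumour 2 and 29.7% in the untreated tumour. C1qc made up 22.6% in anti-CD40 tumour 1, 27.8% in anti-CD40 tumour 2 and 27.7% in the untreated tumour. The C1qa and C1qb shares of the 2 treated tumours thus lay on the same side of the untreated tumour, although their C1q levels were far apart.

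Every library followed this split for C1qa and C1qb. The C1qa share ran from 29.7% to 37.8% over the libraries of anti-CD40 tumour 1 and from 27.6% to 37.2% over those of anti-CD40 tumour 2, against 39.5% to 45.6% in the untreated tumour. The C1qb share ran from 39.0% to 47.9% in anti-CD40 tumour 1 and from 35.8% to 41.3% in anti-CD40 tumour 2, against 28.6% to 31.3% in the untreated tumour. The 8 treated and 4 untreated libraries did not overlap in either share. How often the ratio of other genes separates in this way was not counted, and the libraries are technical parts of 3 tumours. The same held within the shared pools: C1qa was 34.0% in anti-CD40 tumour 1 against 42.2% in the untreated tumour in pool 1, and 37.2% against 43.0% in pool 2. After thinning to equal depth the C1qa share was 35.2% in anti-CD40 tumour 1, 34.5% in anti-CD40 tumour 2 and 44.1% in the untreated tumour. The direction rests on 1 untreated animal, and an exact permutation test over 3 tumours cannot reach the 0.05 level, so no test of the shares is given. A share of UMIs is set by how well each transcript is captured as well as by its amount, so the shares are compared between tumours and not between chains.

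**Figure D3:**
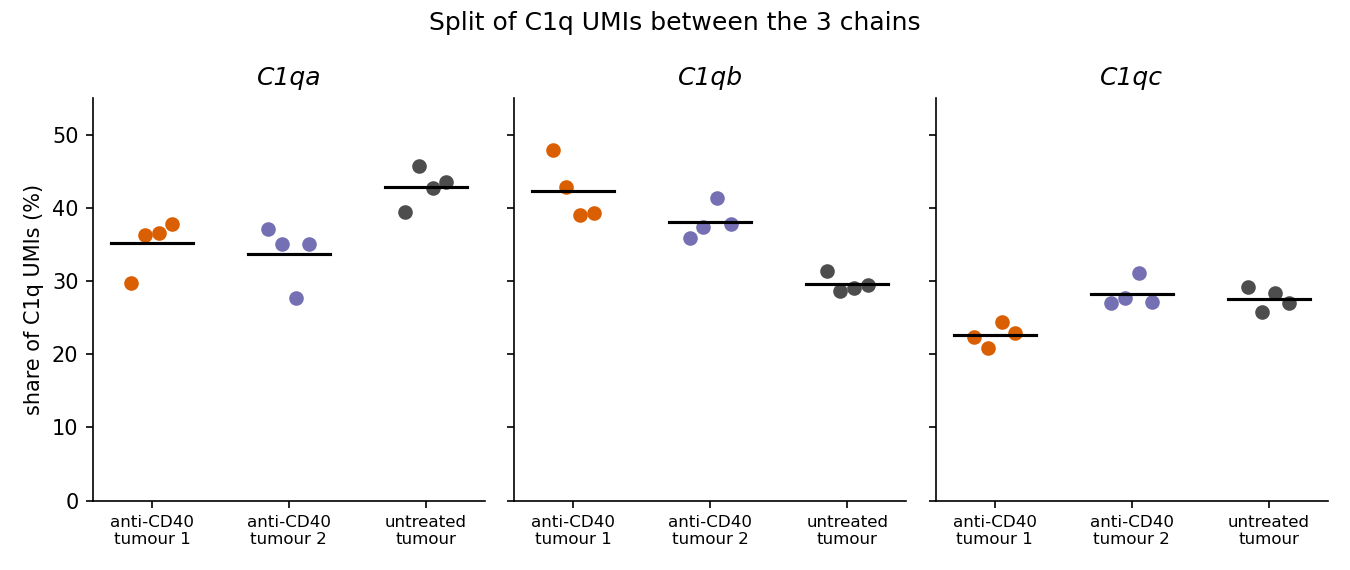
Share of C1q UMIs (percent, y axis from 0) that were C1qa, C1qb or C1qc in MoMacDC cells, for anti-CD40 tumour 1, anti-CD40 tumour 2 and the untreated tumour. Points are the 4 libraries of each tumour and lines their mean; the treated and untreated libraries do not overlap for C1qa (27.6% to 37.8% against 39.5% to 45.6%) or for C1qb. How often other genes separate in this way was not counted.

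MoMacDC is a mixed class, and C1q varied widely within it. Clustering these cells with the 3 C1q genes left out gave 15 clusters, numbered by falling C1q level, whose summed C1q level ran from 19275 CPM down to 223 CPM. The highest level, in cluster 1, came with Ms4a7, Cx3cr1, Fcrls and Apoe as leading genes, 3 of them on the macrophage marker list. Cluster 2, led by the cell cycle genes Tk1, Birc5 and Ube2c, had 16833 CPM over 45 cells. Cluster 3, led by Gatm, Fn1 and Cdh1, had 13973 CPM, and cluster 4, led by Cxcl9 and class II genes, had 13133 CPM.

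At the other end, 3 clusters had little C1q. Cluster 15, led by Fscn1, Ccr7 and Ccl22, genes of mature migratory dendritic cells, had 223 CPM and a C1q UMI in 5.75% of its 174 cells. Cluster 14, led by S100a8, Chil3 and Ly6c2, genes of inflammatory monocytes and neutrophils, had 618 CPM. Of its 116 cells, 110 came from anti-CD40 tumour 1, so this cluster and that tumour cannot be told apart. Cluster 13, led by Ace, Ear2 and Treml4, genes of patrolling monocytes, had 735 CPM and a C1q UMI in 8.77% of its cells. Its 21 cells of anti-CD40 tumour 1 held 20 C1q UMIs, or 828 CPM, against no UMI in its 23 untreated cells.

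A pair of clusters in the middle of the range carried genes of a second cell type together with C1q. Cluster 6 was led by the lymphocyte genes Gzmb, Ctla4 and Icos and had 9227 CPM of C1q, with a T cell marker level of 1789 CPM and a macrophage marker level of 12823 CPM. Cluster 7 was led by the neutrophil genes G0s2, S100a9 and Retnlg and had 8463 CPM of C1q, with a neutrophil marker level of 16502 CPM. Whether such barcodes held more than 1 cell was not tested, and no doublet caller was run.

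The clusters with at least 20 cells from each tumour allowed the tumours to be compared within a cluster, and there were 5 of them. Cluster 1 had 13289 CPM of C1q in anti-CD40 tumour 1 and 20172 CPM in anti-CD40 tumour 2, against 19012 CPM in the untreated tumour. Cluster 5, led by Ifitm1, Vegfa and Thbs1, had 4695 CPM in anti-CD40 tumour 1 and 10066 CPM in anti-CD40 tumour 2, against 7995 CPM in the untreated tumour. Cluster 10, led by Gdf15, Nr1h3 and Lpl, had 4293 CPM in anti-CD40 tumour 1 and 6195 CPM in anti-CD40 tumour 2, against 8424 CPM in the untreated tumour. C1q was lower in anti-CD40 tumour 1 than in the untreated tumour in 5 of the 5 clusters, and lower in anti-CD40 tumour 2 in 3 of them. The count for anti-CD40 tumour 2 turned with the clustering resolution: it was lower in 1 of 6 clusters compared at resolution 0.5 and in 3 of 3 at resolution 1.5, while anti-CD40 tumour 1 was lower in 6 of 6 and 3 of 3.

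Cluster 12, led by Mmp12, Nos2 and Inhba, had 2073 CPM in anti-CD40 tumour 1 and 5793 CPM in anti-CD40 tumour 2, against 6943 CPM in the untreated tumour. Cluster 15 had no C1q UMI in 57 cells of anti-CD40 tumour 1 and 347 CPM in anti-CD40 tumour 2, against 388 CPM from 7 UMIs in the untreated tumour. The mean over the 5 clusters, with equal weight, was 4870 CPM in anti-CD40 tumour 1 and 8515 CPM in anti-CD40 tumour 2, against 8552 CPM in the untreated tumour. Counting only the 4 clusters with at least 50 C1q UMIs in every tumour, the C1qa share was below the untreated share in 3 for anti-CD40 tumour 1 and in 4 for anti-CD40 tumour 2. Cluster 12 went the other way, with a C1qa share of 44.9% in anti-CD40 tumour 1 against 40.9% in the untreated tumour, on 78 and 88 C1q UMIs. In cluster 1 these shares were nearly equal, at 44.5% and 45.3%. The exact intervals of anti-CD40 tumour 1 and the untreated tumour stood apart in cluster 5 alone, at 22.6% to 34.2% against 35.0% to 52.5%. Those of anti-CD40 tumour 2 and the untreated tumour stood apart in clusters 1 and 5 and overlapped in clusters 10 and 12.

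**Figure D4:**
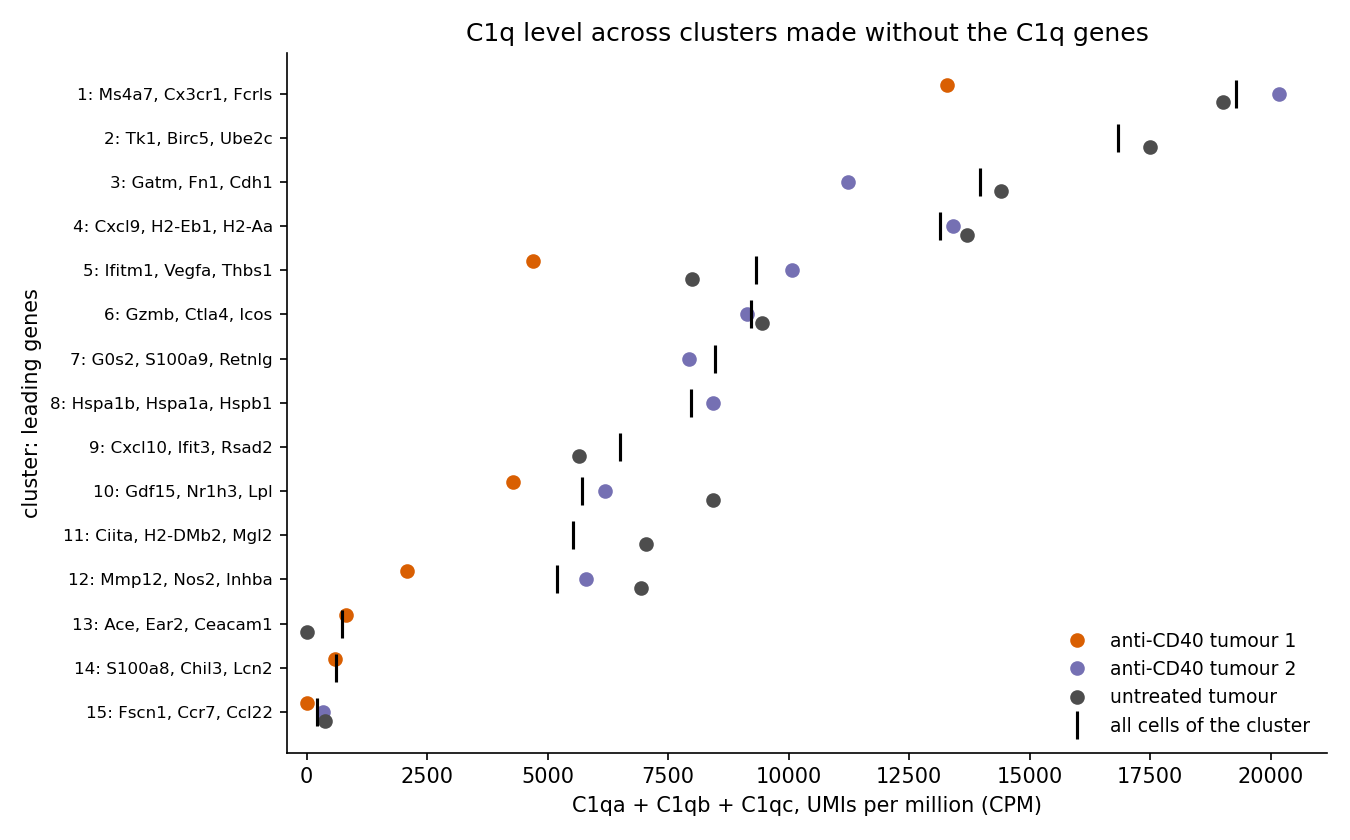
Summed C1q level (CPM, x axis) in 15 clusters of MoMacDC cells made without the C1q genes, each named by number and its 3 leading genes. Coloured points are anti-CD40 tumour 1, anti-CD40 tumour 2 and the untreated tumour where the tumour has at least 20 cells in the cluster, and black bars are all its cells; the level spans 223 to 19275 CPM, and anti-CD40 tumour 1 lies left of the untreated tumour in the 5 clusters that hold all 3.

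Among 1645 genes with enough UMIs, the 10 most like the C1q sum over single MoMacDC cells were Apoe, Grn, Lgmn, Ctss, Fth1, Tgfbi, Itm2b, Cd74, Lgals1 and Lgals3bp. Likeness was Pearson's r of log-scaled values, averaged over the 3 tumours, and it carries no p because the cells share libraries and depth. Apoe, which encodes the lipid carrier apolipoprotein E, came first with a mean r of 0.47 and a range of 0.44 to 0.50 over tumours. Grn, which encodes progranulin, followed with 0.33, the lysosomal protease gene Lgmn with 0.29 and the cathepsin gene Ctss with 0.28.

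Apoe followed the same order of tumours as C1q, with 1136 CPM in anti-CD40 tumour 1 and 4729 CPM in anti-CD40 tumour 2, against 5767 CPM in the untreated tumour. Its log2 change of −0.89 ± 1.00 did not pass edgeR's test, with an adjusted p of 0.859. None of the 10 genes passed it; the lowest adjusted p among them was 0.536, for Lgals1. The 5 genes most unlike C1q were Plac8 with a mean r of −0.33, then Lsp1, Fscn1, Ccr7 and Actg1. Of these, Fscn1, an actin-bundling gene of mature dendritic cells, had 958 CPM in anti-CD40 tumour 1 and 615 CPM in anti-CD40 tumour 2, against 137 CPM in the untreated tumour. Fscn1 rose by 2.52 ± 0.45 on the log2 scale in edgeR's fit, with an adjusted p of 0.0203.

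The partners of C1q in the complement cascade were scarce in MoMacDC. The proteases that bind C1q were nearly absent: C1ra had 3 UMIs in anti-CD40 tumour 1, 9 in anti-CD40 tumour 2 and 7 in the untreated tumour, and C1s1 had 1 and 1 UMI, against 0. C4b, the next component, had 5 and 6 UMIs in the treated tumours, against 6 in the untreated tumour. Of 59 complement genes in the files, 28 had no UMI in MoMacDC and 31 had one. The filter on low counts passed 21, the 3 C1q genes among them. Of all 22631 genes, 12473 had a UMI in MoMacDC and 7099 passed the filter. Both counts of the list were thus near those of all genes. By edgeR's test none of the 21 rose and none fell. An unadjusted p under 0.05 went to 3 of the 21, beside 653 of all 7099 genes tested. DESeq2 gave an adjusted p to 18 complement genes and called 0, beside 14 called of all 5460. Its unadjusted p was under 0.05 for 2 of the 31 complement genes that had one, beside 161 genes in the whole DESeq2 fit of 12473 genes. The median log2 change by edgeR of the 18 tested genes other than the C1q chains was 0.25, beside 0.02 over all 7099 genes tested.

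C3, the central component, stood at 213 CPM in anti-CD40 tumour 1 and 212 CPM in anti-CD40 tumour 2, against 153 CPM in the untreated tumour. Its log2 change was 0.50 ± 0.39, with an adjusted p of 0.770 by edgeR. The alternative pathway genes Cfb and Cfp had log2 changes of 0.64 ± 0.40 and 0.59 ± 0.42 and did not pass either. Among receptors of C3 fragments, Itgam stood at 762 and 726 CPM in the treated tumours, against 351 CPM in the untreated tumour, a log2 change of 1.10 ± 0.41 with an adjusted p of 0.406 by edgeR. Itgax stood at 183 and 199 CPM in the treated tumours, against 390 CPM in the untreated tumour, with an adjusted p of 0.408 by edgeR. The anaphylatoxin receptor gene C3ar1 stood at 144 CPM in anti-CD40 tumour 1 and 452 CPM in anti-CD40 tumour 2, against 623 CPM in the untreated tumour, and did not pass the test. Of the 7 tested genes for proteins that bind C1q or its collagen-like stalk, among them C1qbp, Calr, Cd93 and Lrp1, none passed, with log2 changes from −0.42 to 0.99.

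Neutrophils carried C1q only as scattered single UMIs. The 964 neutrophils held 14 C1q UMIs, each in a separate cell: 6 of 700 cells in anti-CD40 tumour 1, 6 of 215 in anti-CD40 tumour 2 and 2 of 49 in the untreated tumour. That is 0.857%, 2.79% and 4.08% of cells, with exact intervals of 0.315% to 1.86% for anti-CD40 tumour 1, 1.03% to 5.97% for anti-CD40 tumour 2 and 0.498% to 13.98% for the untreated tumour. The median depth of these neutrophils was 926 UMIs in anti-CD40 tumour 1, 668 in anti-CD40 tumour 2 and 435 in the untreated tumour. The summed C1q level was 8.42 CPM in anti-CD40 tumour 1, 34.8 CPM in anti-CD40 tumour 2 and 85.2 CPM in the untreated tumour. That is 0.310% of the MoMacDC level in anti-CD40 tumour 1. All 14 cells carried neutrophil markers, and they fell in each of the 6 neutrophil subsets of the authors. None of the 3 genes had enough counts to be tested there. The edgeR fit called 12 of 2713 genes, or 0.442%, with 11 (0.405%) higher and 1 (0.0369%) lower in the anti-CD40 tumours. The C1q levels were at the scale of single UMIs, so they served as the background for other types.

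T cells of the untreated tumour held far more C1q than this background. C1qa had 2 UMIs in anti-CD40 tumour 1, 1 in anti-CD40 tumour 2 and 49 in the untreated tumour. C1qb had 0 and 7 UMIs in the treated tumours, against 32 in the untreated tumour. C1qc had no UMI in either treated tumour, against 35 in the untreated tumour. The summed level was 46.2 CPM in anti-CD40 tumour 1 and 74.8 CPM in anti-CD40 tumour 2, against 1515 CPM in the untreated tumour, from 48, 135 and 150 cells. The libraries ran from 0 to 107 CPM in anti-CD40 tumour 1 and from 0 to 120 CPM in anti-CD40 tumour 2. In the untreated tumour they ran from 913 to 2151 CPM, above every treated library. How many of all genes separate in this way in T cells was not counted.

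In edgeR's fit all 3 genes fell in T cells of the anti-CD40 tumours. The filter on low counts asked for 1 sum with enough counts, and the 3 genes passed it through the untreated sum alone. These calls therefore add no support beyond the levels given above. The log2 change was −4.88 ± 0.61 for C1qa with an adjusted p of 9.4e-13, and −3.16 ± 0.59 for C1qb with an adjusted p of 1.2e-05. C1qc, at 0 in both treated tumours, was at least 22.9-fold lower when a floor of 3 counts over both tumours is used, with an adjusted p of 8.0e-12 by edgeR. In that fit 39 of 1865 genes were called, or 2.09%, with 19 (1.02%) higher and 20 (1.07%) lower. DESeq2 called none of the 3, with adjusted p of 0.895, 0.998 and 0.622 for C1qa, C1qb and C1qc, although its unadjusted p was 0.000545 for C1qa and 0.000252 for C1qc. The edgeR fit took the spread of T cell sums as common to all genes, and between 1 and 2 animals it cannot see how these cells vary from mouse to mouse.

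The C1q UMIs of untreated T cells sat in few cells, and those cells mostly lacked T cell markers. Of 150 untreated T cells, 27 had a C1q UMI, and 16 cells with at least 3 held 101 of the 116 UMIs. Of these 16 cells, 12 carried no UMI of the 9 T cell markers, and 11 carried at least 3 UMIs of the macrophage markers other than Lyz2. Among the 123 untreated T cells with no C1q UMI, 103 carried a T cell marker and none carried 3 macrophage marker UMIs. The median depth was 304.5 UMIs in the 16 cells and 483 in the 123. All 4 untreated libraries held such cells.

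Macrophage markers moved with C1q in these cells. In untreated T cells all 12 macrophage markers were detected, at 5.17% to 43.8% of their MoMacDC level with a median of 14.7%. C1qa was at 12.3%, C1qb at 11.5% and C1qc at 13.5% of its MoMacDC level there, and Apoe was at 14.7%. In T cells of anti-CD40 tumour 1, 10 of the 12 macrophage markers were at 0, and in those of anti-CD40 tumour 2, 5 were at 0. The summed macrophage marker level in T cells was 92.4 CPM in anti-CD40 tumour 1 and 178 CPM in anti-CD40 tumour 2, against 1946 CPM in the untreated tumour. Of the C1q UMIs of untreated T cells 42.2% were C1qa, with an exact interval of 33.1% to 51.8% that covers the C1qa share of MoMacDC in each of the 3 tumours; 27.6% were C1qb and 30.2% were C1qc.

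When only T cells with a UMI of a T cell marker were kept, a choice made after seeing the data, the treated tumours had 0 C1q UMIs in 45 cells of anti-CD40 tumour 1 and 8 UMIs in 127 cells of anti-CD40 tumour 2, or 77.5 CPM. The untreated tumour then had 28 UMIs in 114 cells, or 450 CPM. C1qa alone had enough counts for a test, and its log2 change of −4.70 ± 2.25 no longer passed, with an adjusted p of 0.417 by edgeR. The 36 untreated T cells with no T cell marker had 6118 CPM of C1q. Leaving out T cells with at least 3 UMIs of a second type's markers also ended the call, with a log2 change of −6.92 ± 3.10 and an adjusted p of 0.386 for C1qa by edgeR. The fitted C1qa change was no smaller without them, and the summed C1q level was then 0 CPM in anti-CD40 tumour 1 and 50.9 CPM in anti-CD40 tumour 2, against 447 CPM from 31 UMIs in the untreated tumour.

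**Figure D5:**
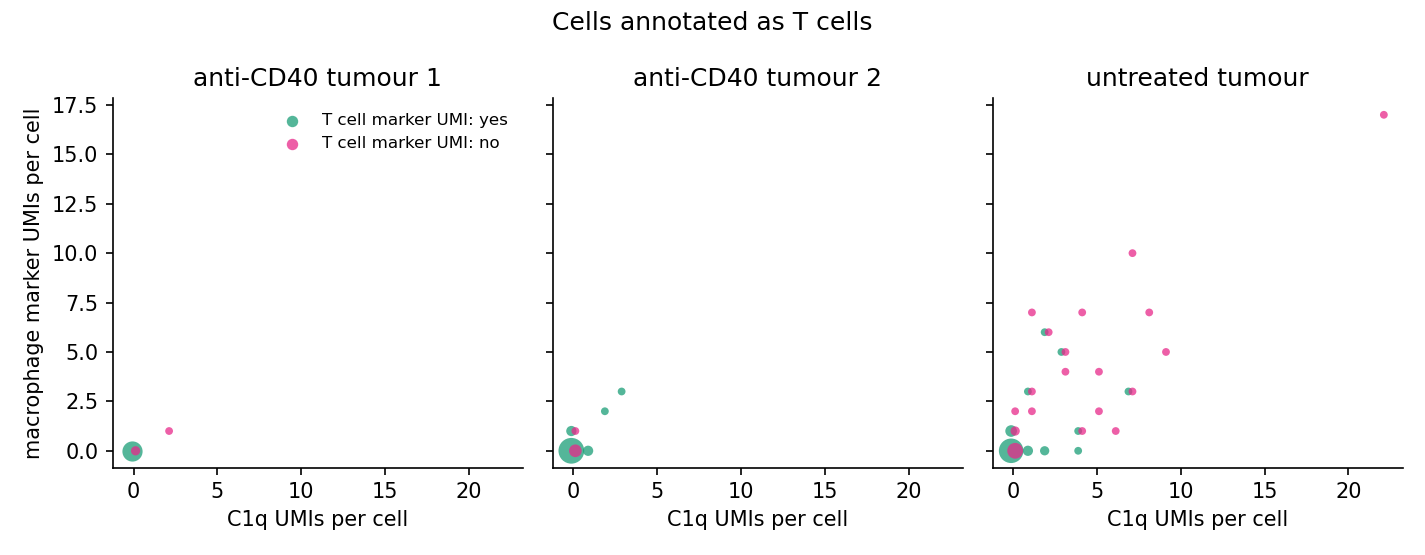
C1q UMIs per cell (x axis) against UMIs of 11 macrophage markers (y axis) in cells annotated as T cells, for anti-CD40 tumour 1, anti-CD40 tumour 2 and the untreated tumour; point area grows with the square root of the number of cells at a position, and points are shifted sideways by marker status. Green points carry a T cell marker UMI and pink points do not; cells with 3 or more C1q UMIs lie almost wholly in the untreated tumour, where 12 of 16 are pink.

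NK cells of the untreated tumour also held C1q, on fewer counts. The C1q sum was 0 UMIs in 28 cells of anti-CD40 tumour 1 and 6 UMIs in 128 cells of anti-CD40 tumour 2, against 28 UMIs in 41 cells of the untreated tumour. The level was 0 in anti-CD40 tumour 1, where a floor of 3 counts is 77.5 CPM, and 49.1 CPM in anti-CD40 tumour 2, against 1201 CPM in the untreated tumour. In the untreated tumour 4 cells with at least 3 C1q UMIs held 25 of the 28 UMIs, 1 in each library. Most of these UMIs were in cells with a marker of their own type: 17 of the 28 were in the 34 untreated NK cells with an NK marker, or 902 CPM, and 2 of the 4 cells carried one. C1qa was the one gene tested, and it too passed the filter on low counts through the untreated sum alone. Its log2 change was −4.95 ± 2.21 with an adjusted p of 0.368 by edgeR. In that fit 15 of 794 genes were called, or 1.89%, with 8 (1.01%) higher and 7 (0.882%) lower. With no filter on low counts C1qa and C1qc passed in NK cells, with adjusted p of 0.00156 and 0.00166 by edgeR. In that fit 8 of 9204 genes were called, 1 higher and 7 lower in the anti-CD40 tumours. DESeq2 called 0 of 9204. C1qc rests there on 10 UMIs, all in the untreated tumour. Of the 12 macrophage markers, 11 were at 0 in NK cells of anti-CD40 tumour 1, 8 in those of anti-CD40 tumour 2 and 7 in those of the untreated tumour.

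B cells, plasmacytoid dendritic cells and basophils were too few for more than counts. The C1q sum was 6 UMIs in 2 B cells of anti-CD40 tumour 1 and 2 UMIs in 5 B cells of anti-CD40 tumour 2, against 13 UMIs in 20 B cells of the untreated tumour. No B cell with a C1q UMI carried a B cell marker, and the label itself was weakly borne out. Of 6 B cell markers, 6 were at 0 in anti-CD40 tumour 1, 1 in anti-CD40 tumour 2 and 4 in the untreated tumour. The 2 plasmacytoid dendritic cells of anti-CD40 tumour 2 had no C1q UMI, against 4 UMIs in the 1 such cell of the untreated tumour. The 2 untreated basophils had none.

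The change of C1q differed between cell types in a fit with the tumour as a block. The log2 change in MoMacDC minus that in T cells was 3.88 ± 0.95 for C1qa, with an adjusted p of 0.0170 by edgeR, and 2.91 ± 0.86 for C1qb, with an adjusted p of 0.167. For C1qc that difference had an adjusted p of 0.00056 by edgeR, and its size rests on T cells with 0 UMIs in both treated tumours. In this comparison 13 of 4538 genes were called, or 0.286%. Against NK cells C1qc was called, with an adjusted p of 0.00875, and C1qa was not, with an adjusted p of 0.0794, where 6 of 4538 genes were called by edgeR, or 0.132%. Without cells that carried markers of a second type none of these differences passed, with adjusted p from 0.0750 to 0.569 by edgeR for those called before. The differences themselves stayed large, at 7.87 ± 2.02 for C1qa against T cells, 6.97 ± 2.34 for C1qc against T cells and 7.90 ± 2.22 for C1qc against NK cells. Against neutrophils none of the 3 genes was called, on 14 UMIs in all.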

How the data were processed

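The deposited tables hold raw UMI counts per cell and gene, which the authors made with bcl2fastq and STAR on GRCm38, per the submitters' processing notes; versions, the counting tool and the strand setting were not given in the sources used here. The lowest deposited cell held 180 UMIs. Tumour, library, pool and cell type came from the authors' deposited cell annotation. C1qa, C1qb and C1qc were taken by name, and the members and lists were chosen with earlier results of these data known. Counts were summed per tumour and cell type and tested in R 4.3.3 with the robust quasi-likelihood fit of edgeR 4.0.16, after filterByExpr and TMM scaling, at a Benjamini-Hochberg threshold of 0.05 over all genes tested; the scripts were tested on simulated data. DESeq2 1.42.0, plain library sizes, no filter, equal depth and left-out libraries, pools or cells were alternatives. SEs are the log2 change divided by the square root of F. Genes named besides the members were those of complement lists and the 10 most and 5 least like the C1q sum, among genes with at least 0.05 UMIs per cell in each tumour. Clusters were made with scanpy 1.11.5 (1500 variable genes, 20 components, 15 neighbours, resolution 1). Shares carry 95% exact binomial intervals. No doublet caller was run, and how the authors treated doublets is not given in the sources used here.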

Additional observations from a re-analysis of the deposited data

Results flagged for a closer look

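The difference in C1q change between MoMacDC and T cells was tested directly and passed for 2 genes. For C1qa the log2 change in MoMacDC minus that in T cells was 3.88, and for C1qc it was 9.28. The C1qc value is set by T cells with 0 UMIs in both anti-CD40 tumours and is no measure of size. The difference between MoMacDC and NK cells passed for C1qc, at 9.04, again with 0 UMIs in NK cells of both anti-CD40 tumours. Cells that carry macrophage markers sit among the untreated lymphocytes, and their part in these differences was not tested beyond leaving such cells out. Outlying libraries were sought in 18 groups of C1q levels and chain shares. The rule took the gap of an end library as a share of the range of 4, and it flagged none. With 4 values this rule is strict, and an unflagged library could still lie apart. In anti-CD40 tumour 2, 1 library had a C1qa share of 27.6%, against 35.0% to 37.2% in the others.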

How the results depend on the processing

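The 3 changes in MoMacDC passed no test under any alternative run. With plain library sizes C1qa was −1.31 ± 0.38, against −1.23 ± 0.79 in the main fit. Its adjusted p of 0.0605 by edgeR then lay just above the threshold. Leaving out a tumour, pool or library gave −2.51 to −0.57 for C1qa, −1.78 to 0.079 for C1qb and −2.55 to −0.26 for C1qc. Within pool 1 the changes were −2.52, −1.65 and −2.58 for C1qa, C1qb and C1qc, and within pool 2 they were −2.57, −1.94 and −2.60. The 29 genes called in MoMacDC became 89 with plain library sizes, 141 with no filter, 67 leaving out cells with second-type markers, 14 with DESeq2, 56 at 300 UMIs per cell, 9 leaving out the shallowest 10% of cells, and 0 to 135 with a library or pool left out; the cause was not tested. In T cells the changes that no longer passed were −6.92 for C1qa without cells of second-type markers, −4.70 with a T cell marker required, and −4.88, −3.60 and −7.47 for C1qa, C1qb and C1qc with DESeq2. C1qa in NK cells passed with no filter, at −4.55, where 8 of 9204 genes were called. Differences between MoMacDC and T cells no longer passed for C1qa with no filter, at 3.91, nor, without second-type cells, at 7.87 for C1qa and 6.97 for C1qc. For NK cells C1qc did not pass with no filter, at 8.78, or without second-type cells, at 7.90, and C1qa passed with plain library sizes, at 3.97. Thinning moved the share of MoMacDC cells with a C1q UMI to 32.2%, 67.8% and 70.8% in anti-CD40 tumour 1, anti-CD40 tumour 2 and the untreated tumour, that of neutrophils to 0.150% for anti-CD40 tumour 1 and 0.5% for anti-CD40 tumour 2, and that of untreated T cells to 12.1%. Without second-type cells the T cell share was 0% in anti-CD40 tumour 1 and 8.21% in the untreated tumour. C1q was lower in anti-CD40 tumour 2 in 1 of 6 clusters compared, or 16.7%, at resolution 0.5, with an equally weighted mean of 8527 CPM against 6320 CPM in the untreated tumour, and in 3 of 3, or 100%, at resolution 1.5, with 4075 CPM against 5459 CPM. Thinned chain shares were 38.6% C1qb and 26.1% C1qc in anti-CD40 tumour 1, 38.6% C1qb and 26.9% C1qc in anti-CD40 tumour 2, and 44.1% C1qa and 26.5% C1qc in the untreated tumour. With a library left out the C1qa share ran from 35.0% to 36.9% in anti-CD40 tumour 1, from 33.8% to 35.6% in anti-CD40 tumour 2 and from 41.6% to 43.9% in the untreated tumour, and the C1qb share from 37.1% to 38.3% in anti-CD40 tumour 2. The T cell marker requirement and the settings for the chain split were chosen after seeing the data. Depth limits the lymphocyte and neutrophil values, where levels rest on 0 to 116 UMIs in a tumour, and the single untreated animal limits every comparison. No paired analysis was possible because there was 1 untreated tumour.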
